A study of Mus musculus with 2 samples.

Results

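The 10 peptidase genes described here, Mme, Ece1, Ace, Dpp4, Anpep, Enpep, Prep, Nln, Thop1 and Lnpep, encode enzymes that cut neuropeptides and other short signal peptides. They were chosen by name and not by their values, as all probes of these genes that are not array controls, and they make up 10 of the 20658 genes that could be named on the array and 12 of its 55674 probes. Mme and Nln had 2 probes each and the other 8 genes had 1 probe each, printed at 1 spot per array.

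The arrays compared ovaries cultured with TKR agonists and ovaries cultured with TKR antagonists, TKR being the receptors of the tachykinins (TKs), the peptide family of substance P and the neurokinins. Ovaries of 2-week-old mice were cut lengthwise into matching pieces and kept for 3 days on culture inserts. The agonist group received [Sar9, Met(O2)11]-SP for TACR1, GR-64349 for TACR2 and the succinylated substance P analog senktide for TACR3, and the antagonist group received L-703,606 for TACR1, GR-94800 for TACR2 and SB218795 for TACR3, with each ligand at 1 μM. The labels give the agonists and the antagonists in the plural, which is read here as the 3 ligands of a kind together, while the wording of the methods leaves room for cultures with single ligands. The mouse strain of these ovaries and the number of ovary pieces behind each RNA are not given in the sources used here, and ovaries cultured without ligand were not analysed here. There was 1 array for each group, which leaves the spread between ovaries unknown, and the values below are described without any test or p-value. Both arrays lay on the same slide and were read in the same scan. A log2 ratio below is the processed signal of the agonist array minus that of the antagonist array on the log2 scale, after each array was scaled on its 75th percentile (672 signal units with agonists and 569 with antagonists). A value of 1 is therefore a 2-fold higher signal with agonists. The error given beside a signal is that of the image analysis software for the spot, and the spot error of a log2 ratio combines the errors of its 2 spots. These errors cover the measurement of a spot and not the spread between ovaries. For the brighter peptidase probes the spot error was nearly the same from gene to gene, 0.20 to 0.21. Between repeated spots of the same probe, the SD of the log2 ratio had a median of 0.07. The spot error is thus a rough scale and not a limit measured for each gene.

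Peptide signals in tissue are short-lived because membrane-bound peptidases of the cell surface cut them in the space between cells, while soluble peptidases of the cytosol and vesicles cut peptides that have been taken up or made inside the cell. Neprilysin, the product of Mme, is the enzyme best known for the inactivation of TKs, and angiotensin-converting enzyme, endothelin-converting enzyme and dipeptidyl peptidase 4 can also cut substance P. In the ovary the same enzymes handle angiotensins, kinins, endothelins and oxytocin-like peptides, and they are found on vessels, stroma, follicle cells and immune cells.

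By the software's criterion, the agonist array measured all 12 probes of the peptidase genes well above background, and the antagonist array 11 of them. The exception was the single probe of Dpp4. None of their spots was saturated, and 0 were marked as outliers. Of the 9 genes that could be compared on both arrays, 5 had a log2 ratio above 0 and 4 below 0, with a median of 0.17. Only Ace reached a 2-fold higher signal with agonists, and 0 of the 9 a 2-fold lower one. As background, the 15258 named genes detected in this way on both arrays had a median log2 ratio of -0.10 (SD 0.48 across genes). A ratio above 0 was found for 37.7% of them. Of these genes 4.01% reached a 2-fold higher signal with agonists and 0.577% a 2-fold lower one. The count of 1 in 9 is too small to be set apart from the 4.01%, and only the single values follow. In RNA of whole tissue, fewer cells of a type and less RNA per cell cannot be told apart.

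The genomic sequence just upstream of the transcription start is shown for Ace and Anpep, which had the highest log2 ratios of the genes measured on both arrays, for Dpp4, which was detected with agonists alone, and for Thop1 and Nln, which were among the lowest, so that the promoters of genes at both ends of the range can be compared. RefSeq promoters (build GRCm38.p6) were found for 9 of the 10 genes, with 15 start sites among them. Each line gives the 250 bases before the start, 5′ to 3′ on the strand of the gene. Capitals mark matches on either strand to the letters of 6 known motifs, namely GGGCGG for the GC box, TATAAA for the TATA element, CCAAT for the box of that name, TGANTCA for an AP-1 site, TTCNNNGAA for a STAT site and TGACG for the core of a cyclic AMP response element (CRE). A GC box of the opposite strand therefore reads CCGCCC, and matches may overlap.
Ace promoter, chr11:105967698-105967947, plus strand: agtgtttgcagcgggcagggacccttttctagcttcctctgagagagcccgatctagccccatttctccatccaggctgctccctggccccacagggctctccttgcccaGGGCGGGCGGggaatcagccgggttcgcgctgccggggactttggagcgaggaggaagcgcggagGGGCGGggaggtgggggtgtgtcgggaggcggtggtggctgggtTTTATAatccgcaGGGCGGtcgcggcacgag
Anpep promoter, chr7:79848211-79848460, minus strand: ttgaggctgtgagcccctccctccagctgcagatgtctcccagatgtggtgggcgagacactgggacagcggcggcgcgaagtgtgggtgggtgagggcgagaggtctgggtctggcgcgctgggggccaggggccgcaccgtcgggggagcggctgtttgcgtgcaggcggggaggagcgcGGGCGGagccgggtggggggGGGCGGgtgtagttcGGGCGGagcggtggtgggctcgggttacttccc
Dpp4 promoter, chr2:62412232-62412481, minus strand: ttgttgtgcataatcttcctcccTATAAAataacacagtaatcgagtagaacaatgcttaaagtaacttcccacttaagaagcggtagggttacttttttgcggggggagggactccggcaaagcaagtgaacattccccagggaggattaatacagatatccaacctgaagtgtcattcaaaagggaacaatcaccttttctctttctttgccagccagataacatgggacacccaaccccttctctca
Thop1 promoter, chr10:81069833-81070082, plus strand: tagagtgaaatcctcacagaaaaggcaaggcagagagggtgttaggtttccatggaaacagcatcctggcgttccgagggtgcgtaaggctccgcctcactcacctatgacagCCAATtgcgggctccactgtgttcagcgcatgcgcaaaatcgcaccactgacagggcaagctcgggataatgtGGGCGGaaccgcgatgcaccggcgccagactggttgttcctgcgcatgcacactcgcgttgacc
Nln promoter, chr13:104109615-104109864, minus strand: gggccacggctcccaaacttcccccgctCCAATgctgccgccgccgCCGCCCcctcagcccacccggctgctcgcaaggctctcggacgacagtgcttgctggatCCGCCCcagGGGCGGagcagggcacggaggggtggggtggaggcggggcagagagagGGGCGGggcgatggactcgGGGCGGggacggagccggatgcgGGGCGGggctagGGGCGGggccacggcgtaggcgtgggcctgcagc

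Of all 32851 promoters in the same RefSeq table, 32.7% held GGGCGG, 12.4% TATAAA, 33.8% CCAAT, 6.75% TGANTCA, 7.02% TTCNNNGAA and 17.8% TGACG, and their median GC content was 52.4%. The Ace promoter shown held 4 GC boxes, 2 of which overlapped, with a GC content of 67.2%. Its TATA match began 31 bases before the start on the opposite strand. The promoter of the other Ace start held 0 GC boxes, 0 TATA matches and 1 CCAAT match at 58% GC. The array held a single probe of Ace, and whether it reads transcripts of both starts was not examined. The Anpep promoter held 3 GC boxes and had a GC content of 72.8%. The Dpp4 promoter was the AT-rich one of the 5 shown (43.6% GC), held 0 GC boxes and had its TATA match 227 bases before the start. Nln, at the other end of the range of ratios, had the highest GC content of the 15 (76.8%), with 7 GC boxes and 1 CCAAT match, and the Thop1 promoter held 1 GC box and 1 CCAAT match at 57.6% GC. Among the promoters shown, GC-rich ones with GC boxes thus stood at both ends of the range when Nln was read by its brighter probe. The other probe of Nln had a log2 ratio of 0.18, and the low ratios of Nln and Thop1 lay within their spot errors. The STAT letters were found in 1 promoter of Mme and in that of Enpep, the AP-1 letters in 1 promoter of Mme, and the CRE core in 0 of the 15. These matches describe the letters in the window and not sites in use.

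**Figure D1:**
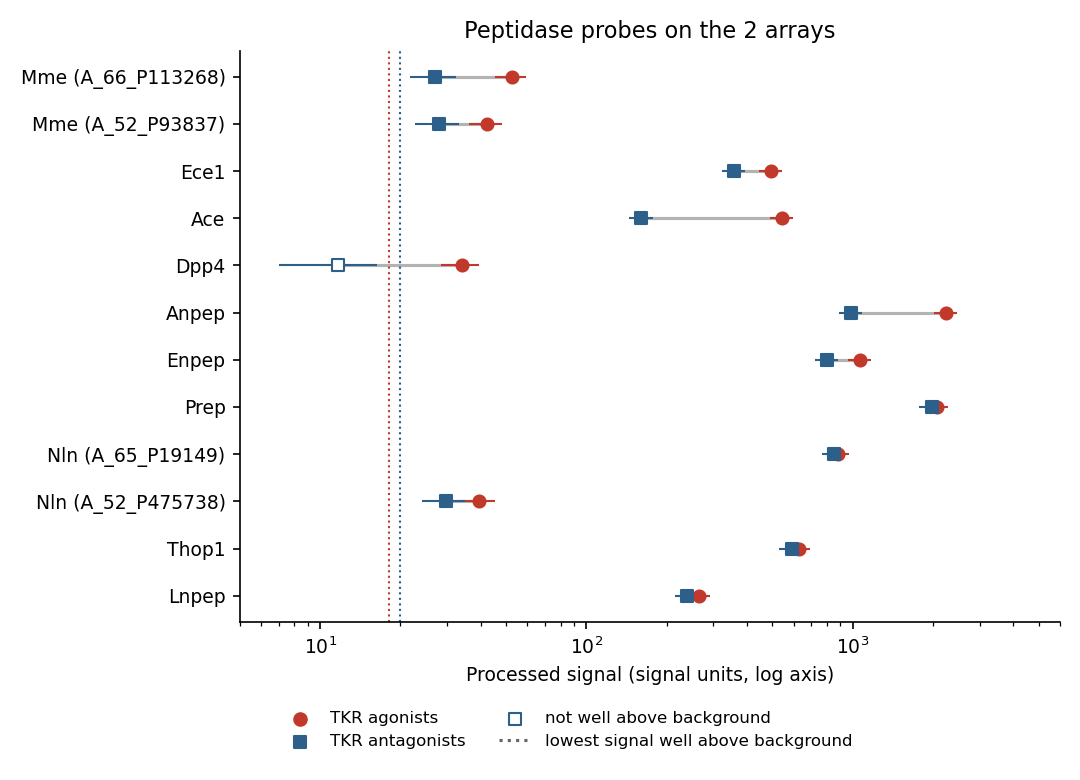
Processed signal of each of the 12 peptidase probes (log axis, signal units) with TKR agonists (circles) and TKR antagonists (squares), before scaling. Horizontal bars are the software's error for the spot, dotted lines mark the lowest signal well above background on each array (18.1 and 19.9), and the open square is the Dpp4 spot that was not well above background; the circle lies farthest from the square for Ace, Dpp4 and Anpep.

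The membrane enzymes that act on TKs and related peptides are described first. Mme encodes neprilysin, a zinc endopeptidase of the M13 family that cuts TKs, enkephalins and natriuretic peptides on their hydrophobic residues. Its first probe (A_66_P113268, for NM_008604) gave 52.4 ± 6.93 signal units with agonists and 27.1 ± 5.36 with antagonists, a log2 ratio of 0.71 with a spot error of 0.34. The other probe of Mme (A_52_P93837, for the same transcript) gave 42.3 ± 6.03 and 28.0 ± 5.24, a log2 ratio of 0.36 with a spot error of 0.34. Both probes were thus higher with agonists, both were close to the lowest signal well above background, and for the other probe the ratio was about as large as its spot error. With the normexp background correction the log2 ratio of the first probe was 0.02, so its size depends on how the background of dim spots is removed.

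Ece1 encodes endothelin-converting enzyme, the M13 relative of neprilysin that releases active endothelin and cuts substance P in endosomes after its receptor is taken up. Its probe (NM_199307) gave 495 ± 49.7 with agonists and 358 ± 36.1 with antagonists. The log2 ratio was 0.22 with a spot error of 0.21, so the difference was about the size of the error of its pair of spots.

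Ace encodes angiotensin-converting enzyme, which removes dipeptides from the end of angiotensin I and bradykinin and is known as an enzyme of the endothelial surface. Its probe (NM_009598) gave 544 ± 54.6 signal units with agonists and 161 ± 16.7 with antagonists. This corresponds to a log2 ratio of 1.52 with a spot error of 0.21, or 2.86-fold, and 1.57% of the 15258 named genes had a ratio at least as high. The ratio of Ace was at least 2-fold under each of the 13 other settings, from 1.13 with normexp to 1.79 when scaled on the spike-in controls. Among these settings, the rules for spots, probes and dim signals could not move it, since Ace had 1 probe at 1 spot, detected on both arrays. RefSeq lists 2 starts for the gene, and the array had 1 probe, so its transcripts could not be compared. Which of them the probe reads was not examined.

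Dpp4 encodes dipeptidyl peptidase 4 (CD26), a serine peptidase that takes dipeptides from the front of peptides with proline or alanine in the next place, substance P and the incretins among them. Its probe (NM_010074) gave 34.0 ± 5.54 with agonists and 11.6 ± 4.67 with antagonists. The antagonist spot was not well above background, although the software marked it as positive and different from its local background. Detection on the agonist array alone was seen for 848 (5.21%) of the 16282 named genes detected on either array. With the lowest signal well above background on the antagonist array in place of the dim value, Dpp4 was at least 1.44-fold higher with agonists. This bound was between 1.39 and 1.75 under the other scalings, but with normexp it was under 1 and gave no fold. The difference of Dpp4 therefore rests on a pair of spots near background.

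Anpep, Enpep and Lnpep encode M1 aminopeptidases, zinc enzymes that trim peptides from the front. Anpep (aminopeptidase N, CD13) prefers neutral residues and takes part in the breakdown of enkephalins and angiotensin III. Its probe (NM_008486) gave 2245 ± 225 with agonists and 987 ± 98.8 with antagonists, a log2 ratio of 0.94 with a spot error of 0.20, or 1.92-fold. This lay just under the 2-fold threshold, and 4.44% of named genes had a ratio at least as high. Over the 13 other settings its log2 ratio was between 0.89 and 1.22, and it was at least 2-fold higher under 7 of them. Of the rest, only scaling on the array median gave another value (0.89). The rules for spots, probes and dim signals could not move a single well-detected spot. The setting thus decides on which side of the threshold Anpep falls but not the direction.

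Enpep (aminopeptidase A), which takes acidic residues from peptides and turns angiotensin II into angiotensin III, gave 1065 ± 107 with agonists and 802 ± 80.3 with antagonists (NM_007934). The log2 ratio was 0.17 with a spot error of 0.20. Lnpep encodes the insulin-regulated aminopeptidase, or oxytocinase, a membrane enzyme mostly held in vesicles inside the cell, which cuts oxytocin and vasopressin. Its probe (NM_172827) gave 265 ± 26.9 and 239 ± 24.3, a log2 ratio of -0.09 with a spot error of 0.21. Both ratios were smaller than their spot errors, and the 3 aminopeptidases of this family thus had no common ratio, with Anpep 0.78 above Enpep and 1.04 above Lnpep on the log2 scale.

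Prep, Nln and Thop1 encode soluble oligopeptidases, which act on short peptides and are mostly found in the cytosol. Prep (prolyl oligopeptidase, NM_011156) cuts after proline in peptides such as substance P and vasopressin. Its signal was 2081 ± 208 with agonists and 1980 ± 198 with antagonists, a log2 ratio of -0.17 with a spot error of 0.20. Thop1 (thimet oligopeptidase, NM_022653), known to cut gonadotropin-releasing hormone and bradykinin, gave 631 ± 63.2 and 590 ± 59.2, a log2 ratio of -0.15 with a spot error of 0.20. Both signals were slightly higher on the agonist array before scaling and slightly lower after it.

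Nln encodes neurolysin, the M3 relative of thimet oligopeptidase that inactivates neurotensin. Its first probe (A_65_P19149, for NM_029447) gave 884 ± 88.5 with agonists and 850 ± 85.1 with antagonists, a log2 ratio of -0.18 with a spot error of 0.20. The other probe of Nln (A_52_P475738) gave 39.5 ± 5.91 and 29.6 ± 5.46, a log2 ratio of 0.18 with a spot error of 0.34. The 2 probes of Nln pointed in opposite directions, each by less than its spot error. The ratios of all 3 soluble oligopeptidases were positive without scaling and when scaled on spike-in probes (0.06 to 0.13), so that no direction can be given for them.

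**Figure D2:**
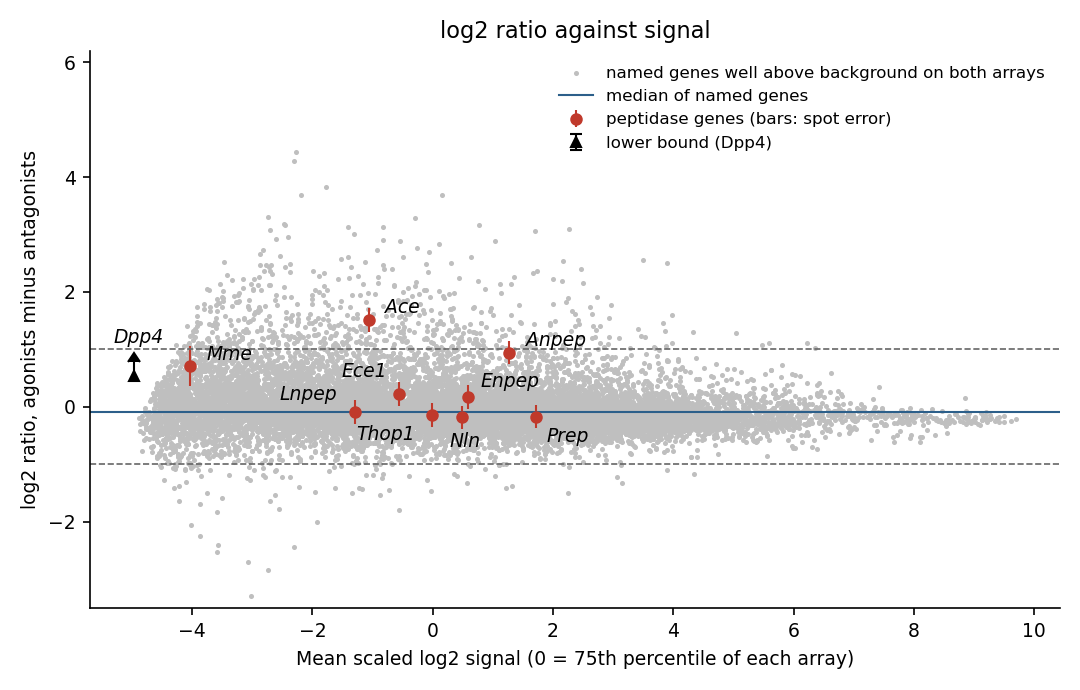
log2 ratio, agonists minus antagonists, against the mean scaled log2 signal for the 15258 named genes well above background on both arrays (grey), with the 9 peptidase genes measured on both (red, bars are spot errors), the lower bound of Dpp4 (black arrow), the median of named genes (line at -0.10) and the 2-fold threshold (dashed). Ace at 1.52 is the only peptidase gene past the threshold, and the grey cloud is wider at low signal, where Mme and Dpp4 lie.

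In order of log2 ratio the 9 genes were Ace, Anpep, Mme, Ece1, Enpep, Lnpep, Thop1, Prep and Nln. Ace stood 0.57 above Anpep, where the spot error of that difference was 0.29, and the first probe of Mme stood 0.49 above Ece1 with a spot error of 0.40. The other probe of Mme, at 0.36, lay closer to Ece1 at 0.22, and with normexp Mme (0.02) lay below Ece1 (0.10). Anpep and Mme differed by 0.23 with a spot error of 0.40, and the 5 steps from Ece1 down to Nln were each smaller than their spot error. By spot error alone, Ace was thus apart from Anpep, the place of Mme depended on the probe and the background correction, and neighbours among the lower 6 could not be told apart.

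When the genes were grouped by where their enzymes work, a grouping made after the values had been seen and thus not tested, the 5 cell-surface enzymes measured on both arrays (Mme, Ece1, Ace, Anpep and Enpep) had log2 ratios of 0.17 or more with a median of 0.71. The 4 enzymes that work mostly inside the cell (Prep, Nln, Thop1 and Lnpep) lay between -0.18 and -0.09 with a median of -0.16. By the representative probes the groups did not overlap, but the gap between Enpep and Lnpep was 0.26, within its spot error of 0.29. By the other probe of Nln, at 0.18 beside Enpep at 0.17, they did overlap. With normexp the gap was 0.02, and the medians differed by 0.24 in place of 0.87. Ece1 and Lnpep both move between vesicles and the surface, so that their place in this grouping is a matter of choice.

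The width of the ratios across all genes depended on the signal, which bears on how large a value of 1 gene has to be to stand out. The 15258 genes were divided by mean signal into 4 groups of equal size. The SD of the log2 ratio was 0.60 in the dimmest group, which held Mme, and 0.53 in the next, which held Ece1, Ace, Thop1 and Lnpep. It was 0.40 in the group after that, which held Anpep, Enpep, Prep and Nln, and 0.31 in the brightest, which held 0 of the 9. The shares at least 2-fold higher were 7.00%, 5.45%, 2.41% and 1.18% in the same order. Ace, at 2.86-fold, lay in a group where 5.45% of genes reached 2-fold. Anpep and Mme stayed under 2-fold, in groups where 2.41% and 7.00% of genes reached it. The shares with a ratio at least as high as theirs were therefore no smaller than these.

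**Figure D3:**
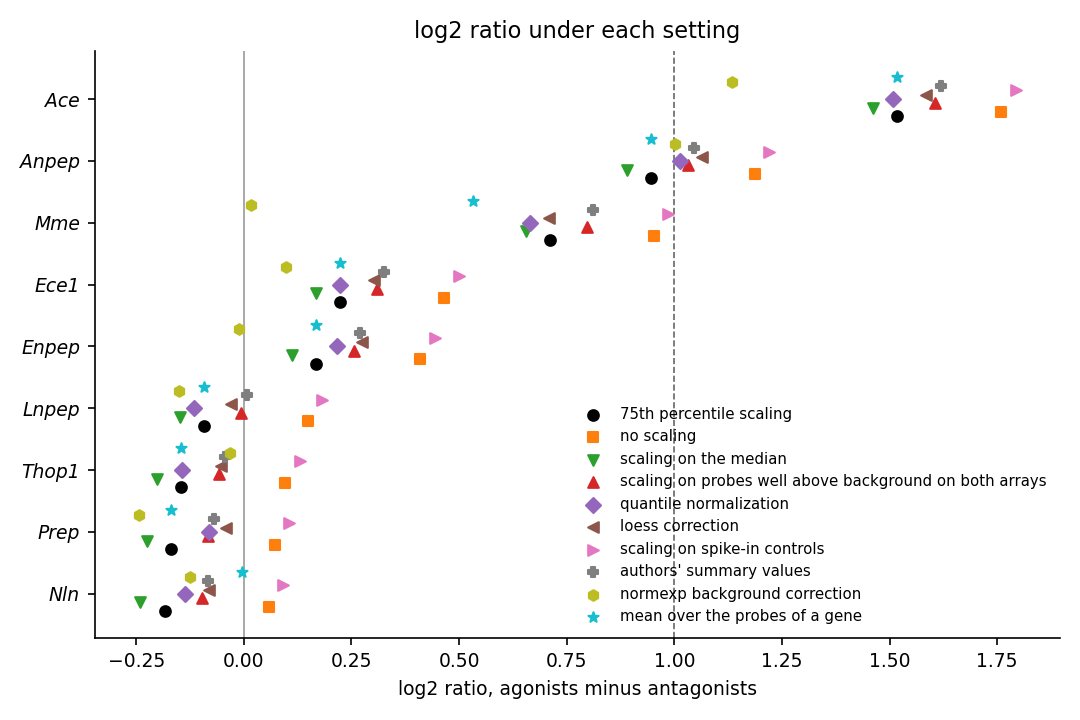
log2 ratio, agonists minus antagonists, of the 9 peptidase genes measured on both arrays under the 75th percentile scaling (black) and 9 other ways of scaling, background correction or averaging (key). Ace stays right of the 2-fold line (dashed) from 1.13 to 1.79, Anpep straddles it, Mme is at 0.02 with normexp, and the lower 4 genes cross 0 (solid line) without scaling and with spike-in scaling.

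The relatives of these enzymes were read in the same way. Of 38 other genes of peptidase families, 32 were detected on both arrays. Their median log2 ratio was -0.04, with 13 above 0 and 19 below, while 37.7% of all named genes detected on both arrays were above 0.

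Among the peptidases detected on the agonist array alone, Dpep1, a membrane dipeptidase that cuts leukotrienes and dipeptides, gave 402 and 22.6 signal units and was at least 15.0-fold higher. Xpnpep2, the membrane-bound aminopeptidase P that can inactivate bradykinin, gave 60.4 and 10.5 and was at least 2.57-fold higher. The spot error of its log2 ratio was 0.63, and its antagonist spot was near background, as for Dpp4. The antagonist signal of Dpep1 lay above the lowest signal well above background (19.9) although its own spot was not marked as such, so its bound equals the ratio of the 2 signals, whose spot error was 0.35 on the log2 scale.

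Without scaling the all-gene median was 0.15 in place of -0.10, so the signs of lists near 0 follow the scaling, and the lists are read against the all-gene median. The other M13 genes had a median log2 ratio of 0.51 over the 4 measured on both arrays, 3 of them above 0, with Ecel1, an enzyme of neurons, at 584 and 338 signal units and a ratio of 0.55. Kel, of this family, was not well above background on either array. The other M1 aminopeptidases, most of them soluble, had a median of -0.06 with 0 of 5 above 0, and Rnpepl1 was at 7301 and 6399 with a ratio of -0.05. Trhde, which degrades thyrotropin-releasing hormone, and Lvrn were not well above background on either array. The genes listed with Dpp4 and Prep, by family or by name, had a median of -0.04, 3 above 0 and 5 below. Among them Dpp7, a lysosomal enzyme, was at -0.25. The remaining peptide-clearing enzymes measured on both arrays had a median of -0.03, 5 above 0 and 8 below, with Xpnpep1, the cytosolic aminopeptidase P, at -0.07. Prcp and Ctsa, carboxypeptidases that act on angiotensins, had a median of 0.04, with Ctsa at 0.09 by its brighter probe. The other probe of Ctsa was at 0.57 and that of Prcp at -0.13. Beside the all-gene median of -0.10, the medians of these lists, by the brightest probe of each gene, were thus between -0.06 and 0.04. The M13 genes were apart from these at 0.51, a median that was 0.14 with normexp.

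Markers of several ovarian cell types differed between the arrays along with Ace and Anpep. Of the 7 endothelial markers measured on both arrays 6 had a ratio above 0 (median 0.88), and Vwf and Cldn5 were at least 2-fold higher. Kdr, below 0 at -0.27 by its brighter probe, was at 0.38 by its other probe. An eighth marker, Tek, was at least 4.10-fold higher with agonists. All 8 pericyte and smooth muscle markers were above 0 (median 0.82), with Rgs5 and Abcc9 at least 2-fold higher. Of 7 macrophage markers 6 were above 0 (median 1.18), with Adgre1, Mrc1, Cx3cr1 and C1qa at least 2-fold higher. Adgre1 was at 1.42 by its brighter probe and at 0.72 by its other probe. The probes of Csf1r (-0.09 to 0.15) and of Itgam (-0.39 to 0.64) fell on both sides of 0. All 8 markers of the surface epithelium and mesothelium were above 0 (median 1.01), with Upk1b, Krt18, Krt19 and Lrrn4 at least 2-fold higher, and 7 of 8 fibroblast markers were (median 0.46), with Mfap5 at least 2-fold higher. The medians of these 5 lists were also above 0 under no scaling, quantile normalization, spike-in scaling and normexp.

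Summed over each list as multiples of the array's 75th percentile, the agonist and antagonist arrays stood at 69.0 and 58.1 for endothelium, 46.6 and 28.5 for pericytes and smooth muscle, 23.1 and 20.9 for macrophages, 68.2 and 44.3 for surface epithelium, and 338 and 270 for fibroblasts. Endothelial cells are known to carry Ace, and fibroblasts and macrophages to carry Anpep. The part of these cell types in the ratios of Ace, Anpep, Mme and Dpp4 was not tested.

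The labelled tissue was checked against markers of its own cells. All 8 oocyte markers and all 8 granulosa markers were well above background on both arrays. The granulosa list had a median log2 ratio of -0.47, with 2 above 0 and 6 below and sums of 100.1 and 131, and its median was -0.23 without scaling and -0.19 with spike-in scaling. Foxl2, above 0 at 0.32 by its brighter probe, was at -0.37 by its other probe. The oocyte list had a median of 0.17 with sums of 223 and 231. The theca list had a median of -0.10, 3 above 0 and 3 below, with sums of 120 and 108, and its median was above 0 without scaling (0.15), with spike-in scaling (0.18) and with quantile normalization (0.03). Star, below 0 at -0.40 by its brighter probe, was at 0.01 by its other probe. Lhcgr, the luteinizing hormone receptor of theca and mature granulosa cells, was not well above background on either array.

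Markers of cell types that could come with the dissected tissue were read as well. The adipocyte list had a median of 0.59 over 3 genes, 2 above 0 and 1 below, and sums of 1.30 and 0.293. Fabp4, which is also made by endothelial cells and macrophages, was at 739 and 44.2 signal units, a log2 ratio of 3.82. Plin1, of the lipid droplet, was at 73.2 and 41.3 (log2 ratio 0.59) and Retn at 38.1 and 55.6 (log2 ratio -0.79). Cidec was well above background with agonists alone, at 20.4 and 11.9, and Adipoq was not well above background on either array. The part of fat cells in the peptidase ratios was not tested. The oviduct list had a median of -0.31 over 5 genes and sums of 0.820 and 0.744, with Epcam at least 2-fold higher at 182 and 73.2 signal units. The T lymphocyte list had a median of -0.22 over 3 genes and sums of 12.8 and 12.9, and Cd3d and Cd8a were not well above background on either array.

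**Figure D4:**
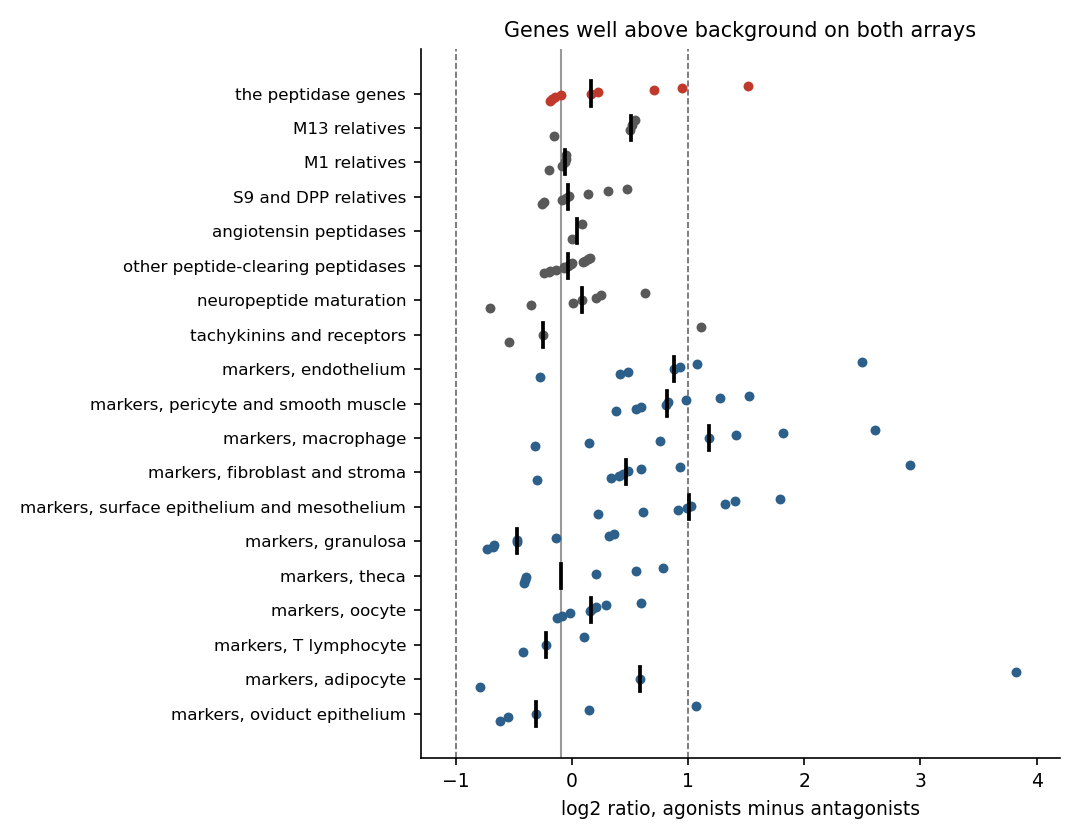
log2 ratio, agonists minus antagonists, of every gene well above background on both arrays in each list (points), with the list's median (black bar), the all-gene median (grey line at -0.10) and the 2-fold threshold (dashed). The peptidase genes (red) spread from -0.18 to 1.52, the lists of related peptidases (grey) lie mostly around 0, and the endothelial, pericyte, macrophage and surface epithelium markers (blue) lie mostly right of the all-gene median while 6 of the 8 granulosa markers lie left of it.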

How the data were processed

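RNA of the cultured ovary pieces was labelled with Cy3 and hybridised to SurePrint G3 Mouse GE arrays, 1 array per group and 2 in all. The authors had the scans read with Agilent Feature Extraction 10.10.1.1 and deposited spot intensities on a linear scale, after the software subtracted the background, along with its error for each spot and its flags for saturated, outlying and well detected spots. A summary table they also deposited holds the processed signal multiplied by 1 factor per array, 1.99 with agonists against 2.19 with antagonists, with a largest relative deviation of 4.97e-10. Of the 59305 spots that are not controls, 65.4% (agonists) and 61.6% (antagonists) were well above background and 0 were saturated. The number of arrays limits the precision. For the 284 probes printed at 10 spots and well above background, the median SD of the log2 ratio between spots was 0.07.

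The processed signal was taken as log2, scaled by subtracting the array's 75th percentile, and averaged over the spots of a probe after spots marked as outliers were left out. More than 50% of a probe's spots had to be well above background for the probe to count as such. With detection on a single array, the fold is a lower bound, in which the dim signal is raised, where it lies below it, to the lowest signal well above background on that array. The files hold RefSeq accessions and no gene symbols, so 27230 probes were named through the RefSeq gene table of GRCm38.p6, while 453 of the 26536 probes with an NM accession were not. The array was designed on another build (mm9), so only the promoters carry coordinates, those of RefSeq on GRCm38.p6. Nrdc was found under its older symbol Nrd1, and Cd68, Insl3 and Trac had no matched probe. A gene related to the peptidases is not reported here, whatever its value, so the counts over related peptidases leave it out and no count of 2-fold differences is given for them.

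All 10 peptidase genes are named with every probe, each represented by the probe of highest mean signal. Genes of other lists are named where at least 2-fold different, with a bound of at least 2-fold, or where their signal was the highest of their list, and a few more were picked after their values were seen (genes not above background, and single examples). The members and lists were chosen with earlier results of these data known. Lists are described by counts and medians, with no test. The settings compared were no scaling, scaling on the array median, on probes well above background on both arrays or on spike-in controls, quantile normalization, loess (span 0.3), the authors' summary values, normexp (offset 50, on the median spot signal because the files hold no mean spot signal), other rules for spots, probes and dim signals, and thresholds of 4-fold and 1.5-fold. The calculation was tested on simulated data. Python 3.11.15, numpy 2.4.6, pandas 2.3.3, matplotlib 3.10.9, R 4.3.3 and limma 3.58.1 were used.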

Additional observations from a re-analysis of the deposited data

How the results depend on the processing

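Ace reached 2-fold under every setting run, some of which could not move its value. At a 4-fold threshold the count of peptidase genes was 0. The count was 2, with Anpep added, without scaling, with scaling on probes well above background on both arrays, with quantile normalization, loess, spike-in controls, the authors' summary values and normexp. It was also 2 with no filter on dim probes, where Dpp4 was added at face value, and 3 at a 1.5-fold threshold. The count of peptidase genes at least 2-fold lower was 0 under all of them. The median log2 ratio of the peptidase genes, 0.17, was 0.41 without scaling and 0.44 with spike-in controls, which move the all-gene median by 0.24 and 0.28, and -0.01 with normexp. Of 117 values of single peptidase genes under the alternatives, 99 moved by less than the spot error and 18 by more. Many of the 99 could not move at all. The rules for spots, outliers and dim signals cannot change a probe with 1 spot detected on both arrays, nor can averaging over probes change a gene with 1 probe. Enpep changed sign under 1 alternative, Prep, Nln and Thop1 under 2 each and Lnpep under 3, all from values within their spot errors. Over all named genes, 612 were at least 2-fold higher and 88 lower, against 992 and 39 without scaling, 1054 and 35 with spike-in controls, 746 and 58 with the authors' values and 322 and 33 with normexp. The cause of these shifts was not tested. No paired analysis was possible because 1 array stood for a group, and no replicate could be left out. Mme and Dpp4 are limited by signals near background.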

Other observations

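Genes on the other side of the peptides' life, their synthesis and their receptors, gave these values. Of 8 enzymes and helpers of neuropeptide maturation, 7 were measurable on both arrays, 5 with a log2 ratio above 0 and 2 below (median 0.09), and 0 were 2-fold different. Cpe, the carboxypeptidase that trims peptides after their precursors are cut, had the highest signal of the list, 71535 with agonists and 50755 with antagonists (log2 ratio 0.25). Pcsk1, a precursor-cutting convertase of endocrine cells, was not well above background on either array. Chosen after their values were seen, the convertase gene Pcsk5 had the highest ratio of the list (0.63) and Scg5, the helper of another convertase, the lowest (-0.71, with signals of 1214 and 1674).

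Among the TK genes, Tac2, the precursor of neurokinin B, was 2.16-fold higher with agonists (434 and 170.04 signal units, log2 ratio 1.11), while Tac1, the precursor of substance P and neurokinin A, was at 250.2 and 307 (log2 ratio -0.54). Of their receptors, Tacr2 was at 2454 and 2465 (log2 ratio -0.25) by its brighter probe, while its other probe was well above background on at most 1 array. Tacr1, Tacr3 and the precursor gene Tac4 were not well above background on either array. Each of these values rests on 1 array per group, and no test was made.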
